A study of Mus musculus with 18 samples.

Results

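The 30 genes described here encode the enzymes that build cholesterol and fatty acids in mouse cells, together with the regulators that switch those enzymes on. They were taken by gene symbol from a table of 25897 genes measured as newly made RNA in mouse embryonic stem cells. They fall into 5 regulators (Insig1, Srebf1, Srebf2, Scap, Stard4), 7 mevalonate steps (Acat2, Hmgcs1, Mvk, Pmvk, Mvd, Idi1, Fdps), 11 later sterol steps (Fdft1, Sqle, Lss, Cyp51, Tm7sf2, Msmo1, Nsdhl, Hsd17b7, Ebp, Sc5d, Dhcr7) and 7 fatty acid steps (Acly, Me1, Acaca, Fasn, Elovl6, Scd1, Scd2). Mvd, which decarboxylates mevalonate diphosphate and lies on the minus strand of chromosome 8 (GRCm38, 122433601 to 122443422), was listed at 0 counts in all 18 libraries. Gm20388, which overlaps Mvd on the opposite strand, was listed at 1522 to 6484 counts per library, and how the authors assigned reads in the overlap is not stated, so the 0 does not show that Mvd was silent. The other 29 genes passed the filter on low counts and were among the 14128 genes tested.

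All cells were of the E14tg2a line (129SV background), had lost their own Med24 and carried cRAF-ErT2-T2A-RTTA, in which the RAF kinase is fused to a receptor domain that 4-hydroxytamoxifen (4OHT) activates, so that 4OHT switches on the ERK pathway. They also carried a FLAG-Med24 cDNA under tetracycline control. Med24 is a subunit of Mediator, the complex that connects transcription factors with RNA polymerase II. Rescued cells (labelled WT) received 500 nM doxycycline and expressed the cDNA. Knockout cells (labelled KO) received none, so doxycycline and Med24 cannot be told apart. The cells grew in serum and LIF with 2 µM Chir99021, then spent 24 h in serum and LIF with 250 nM PD173074, an FGF receptor inhibitor, and were left without 4OHT (0 h) or given 250 nM for 2 or 8 h. No cells without cRAF-ErT2-T2A-RTTA were given 4OHT, so effects of 4OHT itself and of ERK cannot be told apart. Each of the 6 groups held clones A, B and C, and new RNA was labelled with 5 mM ethynyl uridine for 15 min.

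Cells make cholesterol from acetyl-CoA through mevalonate, squalene and lanosterol, and fatty acids from acetyl-CoA through malonyl-CoA. SREBP proteins, the products of Srebf1 and Srebf2, activate these genes. When sterols are plentiful, Insig proteins hold the SREBP carrier Scap in the endoplasmic reticulum. When sterols are scarce, Scap escorts SREBP to the Golgi, where it is cut, and the freed part enters the nucleus and binds sterol regulatory elements beside boxes for NF-Y and Sp1.

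To show how such boxes are laid out, bases upstream of the start are printed for 4 members that behaved differently with 4OHT: Hmgcs1 and Srebf2, which rose in both genotypes, Insig1, which rose and then fell below its starting level in knockout cells, and Elovl6, which fell. They come from RefSeq for GRCm38.p6, run 5′ to 3′ on the gene's strand, and lie at chr13:119690201-119690350 (plus), chr15:82147031-82147180 (plus), chr5:28071213-28071362 (plus) and chr3:129532205-129532354 (plus). Each printed stretch is the 150 bases before whichever of the RefSeq and GENCODE starts comes first. Their last bases therefore lie 1, 89, 50 and 32 bases upstream of the RefSeq start, so the stretches do not cover like positions. Capitals mark matches, on either strand, to the sterol regulatory element TCACNCCAC, the NF-Y box CCAAT and the GC box GGGCGG that Sp1 binds, and no base lies in more than 1 match.
Hmgcs1: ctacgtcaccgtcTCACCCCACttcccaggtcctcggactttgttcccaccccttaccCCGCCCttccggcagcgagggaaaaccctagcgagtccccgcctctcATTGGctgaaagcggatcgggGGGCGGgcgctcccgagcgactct
Srebf2: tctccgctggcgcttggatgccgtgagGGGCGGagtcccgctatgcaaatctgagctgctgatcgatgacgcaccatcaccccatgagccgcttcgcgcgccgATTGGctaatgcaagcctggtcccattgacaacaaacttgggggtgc
Insig1: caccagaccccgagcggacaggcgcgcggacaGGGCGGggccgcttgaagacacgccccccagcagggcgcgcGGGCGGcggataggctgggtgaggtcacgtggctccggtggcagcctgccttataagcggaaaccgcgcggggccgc
Elovl6: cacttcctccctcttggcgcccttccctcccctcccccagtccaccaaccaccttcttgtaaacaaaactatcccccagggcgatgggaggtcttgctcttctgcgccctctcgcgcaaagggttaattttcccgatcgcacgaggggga

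The Hmgcs1 stretch holds a match to each of the 3 motifs and that of Srebf2 an NF-Y box and a GC box. That of Insig1 holds GC boxes only, its NF-Y box lying outside the stretch at position -216, and that of Elovl6 holds none of them. Cut the same way, the stretch of Idi1 held none of them and that of Cyp51 a GC box only. Idi1 and Cyp51 rose at 2 h in both genotypes, and each has an NF-Y box nearer the start. Whether a motif goes with the response was not tested. RefSeq promoters (250 bases before to 50 bases after the start) were found for 24 of the 30 members. The NF-Y box lay in 20 of these 24 genes (83.3%) against 42.6% of 10786 tested genes with a promoter in the same table. The GC box also lay in 20 of 24 (83.3%), against 67.6% of tested genes. The strict sterol regulatory element was found in Hmgcs1 alone (4.17% of 24, against 1.45% of tested genes), and the E box CACGTG, which USF proteins bind, in 5 of 24 (20.8% against 11.5%). The ETS site CCGGAAG went the other way, lying in 2 of 24 members (8.33%) against 18.7% of tested genes. A match is a description of the letters only, and other forms of the element were not searched.

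Library totals ran from 6691177 to 14541145 counts. Med24 itself checked the labels: it was read at 404 to 1635 CPM (counts scaled to the library total and its TMM factor) as group means in rescued cells and at 38.9 to 46.5 in knockout cells. All 8 stem cell markers were read in all groups, but not at a constant level: Pou5f1 means ran from 174 to 332 CPM, Nanog fell from 330 CPM at 0 h to 19.8 CPM at 8 h in rescued and from 358 to 70.6 CPM in knockout cells, and Esrrb fell from 557 to 163 CPM at 2 h in rescued cells. Knockout cells at 8 h had 5 of the 8 higher than rescued cells and 0 lower at an adjusted p under 0.05 (14.5% and 17.1% of all tested genes). At each time 4 or 5 of 5 primitive endoderm markers were higher in knockout cells (6.81%, 10.8% and 14.5% of all tested genes at 0, 2 and 8 h). Group means of Gata6 lay between 1.72 and 3.23 CPM in rescued and 4.68 and 8.11 CPM in knockout cells. A set of 13 very abundant genes, none of them a member, took 17.7 to 24% of counts in 15 libraries but 34.2% in knockout clone A at 2 h and 36.4% and 43.9% in knockout clones B and C at 8 h. TMM scaling sets most genes level between libraries, and values for clones are given in the order A, B, C. All p-values are from edgeR's quasi-likelihood test adjusted by Benjamini-Hochberg over all tested genes, and "called" means an adjusted p under 0.05. Clones within a group are the only replication, so the tests measure the spread between clones.

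After 2 h of 4OHT, newly made RNA of most of these genes was higher in rescued cells. Of the 29 tested, 21 were called higher and 3 lower, where 32.4% of all tested genes were called higher and 33.8% lower. Their median log2 fold change was 0.52, against -0.02 for all tested genes. With libraries scaled by total counts alone the all-gene median moved to -0.18 and the member counts to 14 higher and 3 lower, with the share of higher calls among all calls going from 48.9% to 31.9%. The median of the members stood 0.54 above that of all genes under either scaling. Calls of 18 of the 21 held with each library left out in turn, the exceptions being Fdps, Sqle and Hsd17b7. The labels name no spike-in, so each value is a change in share of a library's RNA, and in such bulk samples fewer cells making an RNA and less RNA made per cell cannot be told apart.

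The largest rise was in Me1, cytosolic malic enzyme, which makes NADPH for fatty acid synthesis. It was read at 59.9, 70.6 and 58.0 CPM at 0 h and at 315, 293 and 284 CPM at 2 h, a log2 fold change of 2.24 ± 0.08 (SE; adjusted p = 1.05e-21). At 8 h it was back at 48.9, 48.2 and 55.6 CPM, below every clone at 0 h (-0.30 ± 0.08, adjusted p = 0.0025). In knockout cells Me1 went from 52.7, 48.4 and 55.6 to 304, 366 and 349 CPM (2.71 ± 0.08, adjusted p = 2.34e-23), and the rise was larger than in rescued cells by 0.46 ± 0.11 on the log2 scale (adjusted p = 0.00313). In both genotypes Me1 was high at 2 h alone.

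Among the regulators, Srebf2, the SREBP most tied to cholesterol genes, rose in both genotypes by nearly the same amount. It was read at 132, 117 and 127 CPM at 0 h, 269, 267 and 268 CPM at 2 h and 183, 193 and 185 CPM at 8 h in rescued cells. The log2 fold change was 1.10 ± 0.07 at 2 h (adjusted p = 1.43e-14) and 0.58 ± 0.07 at 8 h (adjusted p = 2.97e-08). Knockout cells gave 127, 138 and 128 CPM at 0 h, 286, 260.0 and 289 CPM at 2 h and 155, 191 and 208 CPM at 8 h, so the groups of the genotypes overlapped at each time. The 2 h responses differed by -0.01 ± 0.10 (adjusted p = 0.955).

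Srebf1, the SREBP most tied to fatty acid genes, did not follow Srebf2. In rescued cells its values overlapped across the 3 times, with 222, 211 and 197 CPM at 0 h, 207, 225 and 218 CPM at 2 h and 221, 201 and 204 CPM at 8 h. In knockout cells it fell from 243, 218 and 213 CPM at 0 h to 205, 195 and 199.9 CPM at 2 h and to 170.4, 184 and 186 CPM at 8 h (-0.32 ± 0.06 at 8 h, adjusted p = 3.29e-05). The fall at 2 h (-0.17 ± 0.06, adjusted p = 0.0126) lost its call without knockout clone A at 0 h (adjusted p = 0.123) or clone B at 2 h (0.0574). Srebf1 overlaps Rai1, a gene on the other strand that rose by 0.58 at 2 h in rescued cells. Rai1 was lower in knockout than in rescued cells at 0, 2 and 8 h (-0.35, -0.32 and -0.44). Its 8 h response was not called different between genotypes (-0.09 ± 0.08, adjusted p = 0.54). The use of strand in the authors' counting is not stated, so reads of such a pair cannot be told apart. Scap stayed within 31.0 to 45.1 CPM over all 18 libraries. It was called higher at 8 h than at 0 h in knockout cells, a call lost without 4 of the 6 libraries (highest adjusted p = 0.29). Stard4, which carries sterol between membranes, rose by 0.36 ± 0.08 in rescued and 0.45 ± 0.08 in knockout cells at 2 h (adjusted p = 0.000209 and 9.3e-06).

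Insig1, whose product holds Scap back and which is itself an SREBP target, rose at 2 h in both genotypes. In knockout cells it was below its starting level at 8 h. Rescued clones gave 58.6, 56.9 and 49.9 CPM at 0 h, 85.5, 126 and 113 CPM at 2 h and 67.0, 65.0 and 63.7 CPM at 8 h. Knockout clones gave 62.6, 74.7 and 69.7 CPM at 0 h, 147, 180.3 and 171 CPM at 2 h and 49.3, 53.4 and 54.1 CPM at 8 h. All knockout clones lay above all rescued clones at 0 and 2 h and below all of them at 8 h. From 0 to 8 h Insig1 changed by 0.25 ± 0.10 in rescued cells, a call lost without rescued 0 h clone C (adjusted p = 0.195), 8 h clone A (0.11) or 8 h clone B (0.0616), and by -0.41 ± 0.10 in knockout cells (adjusted p = 0.00118). The difference between these responses was -0.66 ± 0.14 (adjusted p = 0.00166) and kept its call with each library left out in turn. For the 2 h responses, 0 of the 5 regulators were called different between genotypes (6.60% of all tested genes in each direction). The falls from 2 to 8 h were not compared between genotypes.

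**Figure D1:**
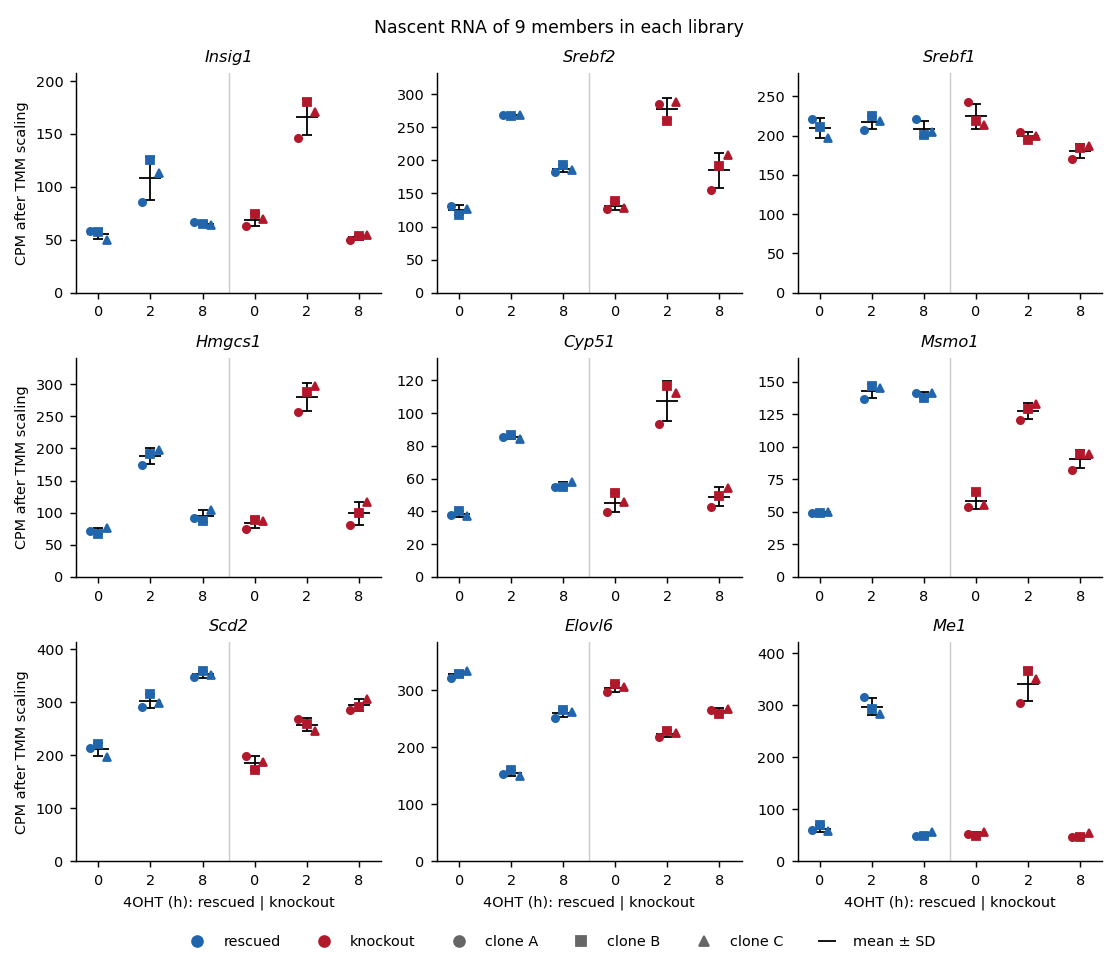
Nascent RNA in CPM after TMM scaling (linear axis from 0) of 9 members in each library, by hours of 4OHT, rescued cells in blue and knockout cells in red; symbols are clones and black lines the mean ± SD of 3 clones. Me1 is high only at 2 h, Msmo1 stays high at 8 h in rescued cells, and Elovl6 is lowest at 2 h in rescued cells.

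Of the 6 mevalonate genes tested, 4 were higher at 2 h in rescued cells, where 32.4% of all tested genes were. Mvk (mevalonate kinase) and Acat2 (which joins acetyl-CoA units) were not called, with changes of 0.05 and 0.15. Hmgcs1, which makes HMG-CoA and lies at chr13:119690379-119708260 on the plus strand, led the group. It was read at 72.0, 67.2 and 75.6 CPM at 0 h, 175, 192 and 198 CPM at 2 h and 92.5, 87.8 and 104 CPM at 8 h in rescued cells (1.39 ± 0.09 at 2 h, adjusted p = 1.34e-14). Knockout clones gave 74.8, 89.2 and 87.7 CPM at 0 h, 256, 288 and 297 CPM at 2 h and 81.1, 99.0 and 117 CPM at 8 h (1.74 ± 0.09 at 2 h, adjusted p = 2.59e-17). All knockout clones stood above all rescued clones at 2 h (0.58 ± 0.08, adjusted p = 1.46e-06), while the difference of the 2 h responses, 0.35 ± 0.12, missed the threshold (adjusted p = 0.061). At 8 h the genotypes overlapped.

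Idi1, which converts isopentenyl diphosphate to its isomer, moved like Hmgcs1. It rose from 17.6, 22.3 and 18.9 to 37.6, 50.7 and 43.3 CPM in rescued cells (1.17 ± 0.11, adjusted p = 1.77e-10) and from 19.99, 24.4 and 22.9 to 55.3, 66.4 and 63.4 CPM in knockout cells (1.46 ± 0.10, adjusted p = 1.84e-13). The knockout level at 2 h was higher by 0.50 ± 0.10 (adjusted p = 0.000171). Fdps, which makes farnesyl diphosphate, is little read (1.83 to 8.44 CPM), and its rise of 0.68 ± 0.26 in rescued cells rested on clone B at 2 h, since without it the change was 0.23 (adjusted p = 0.432). Without rescued clone B or C at 0 h its adjusted p was 0.0571 or 0.0533. Pmvk, the next kinase after Mvk, rose by 0.39 ± 0.13 at 2 h in rescued cells (adjusted p = 0.00824).

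In the sterol steps, 9 of 11 genes were higher and 1 lower at 2 h in each genotype. Of all tested genes, 32.4% were higher and 33.8% lower in rescued cells, and 31.5% and 35.2% in knockout cells. By total counts alone, however, Sqle stood at -0.01 in knockout cells. Cyp51, which demethylates lanosterol, showed the common pattern. It was read at 37.8, 40.2 and 37.1 CPM at 0 h, 85.5, 86.3 and 84.3 CPM at 2 h and 54.9, 55.2 and 57.9 CPM at 8 h in rescued cells (1.16 ± 0.09 at 2 h, adjusted p = 4.09e-13). Knockout clones gave 39.5, 51.1 and 45.6, then 93.4, 116 and 112, then 42.9, 49.6 and 54.5 CPM, so at 8 h they overlapped the knockout cells at 0 h. Cyp51 overlaps Akap9 on the opposite strand, which went the other way at 2 h in rescued cells (-0.49 ± 0.06). Sc5d, a sterol desaturase (0.97 ± 0.09), Fdft1, which makes squalene (0.82 ± 0.07), Dhcr7, the reductase that ends a branch of the pathway (0.72 ± 0.11), Lss, which forms lanosterol (0.63 ± 0.08), and Nsdhl (0.58 ± 0.11) also rose at 2 h in rescued cells, with adjusted p of 2.79e-05 or less. Fdft1 overlaps Ctsb on the opposite strand, and Ctsb rose by 0.73 ± 0.07 at the same time.

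Sqle, the squalene epoxidase often named as a control point, moved little. It went from 50.2, 51.4 and 51.3 to 54.7, 64.3 and 61.5 CPM in rescued cells (0.24 ± 0.09, adjusted p = 0.0219), a call lost without clone A at 0 h (0.0606), clone B at 2 h (0.104) or clone C at 2 h (0.0645). Hsd17b7 (0.24 ± 0.10, adjusted p = 0.0316) likewise lost its call without clone A or C at 0 h or clone B or C at 2 h (adjusted p from 0.0693 to 0.118). Ebp, the sterol isomerase, fell in both genotypes, from 7.51, 7.38 and 7.56 to 3.39, 5.25 and 3.77 CPM in rescued cells (-0.86 ± 0.18, adjusted p = 0.00014) and by 0.75 on the log2 scale in knockout cells (adjusted p = 0.000291). Tm7sf2, a sterol reductase that overlaps Vps51 on the same strand, was not called at 2 h in either.

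Msmo1, the methyl sterol oxidase that acts after Cyp51, was as high at 8 h as at 2 h in rescued cells. It was read at 49.4, 49.4 and 49.8 CPM at 0 h, 137, 147 and 145 CPM at 2 h and 141, 137 and 141 CPM at 8 h. The log2 fold change was 1.53 ± 0.07 at 2 h and 1.497 ± 0.07 at 8 h (adjusted p = 6.61e-19 and 8.47e-19). Knockout clones gave 54.0, 65.1 and 55.3 CPM at 0 h, 121, 129 and 133 CPM at 2 h and 82.4, 94.7 and 94.5 CPM at 8 h, so the rise was smaller and fell back between 2 and 8 h (-0.51 ± 0.06, adjusted p = 4.53e-08). The response was weaker in knockout cells by 0.39 ± 0.09 at 2 h (adjusted p = 0.00355) and by 0.87 ± 0.09 at 8 h (adjusted p = 7.2e-08).

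Of the 7 fatty acid genes, 5 were higher and 2 lower at 2 h in rescued cells (32.4% and 33.8% of all tested genes). Elovl6, which lengthens palmitate to stearate, fell furthest. It went from 322, 329 and 334 CPM at 0 h to 153, 160.0 and 149.7 CPM at 2 h and back to 251, 265 and 262 CPM at 8 h (-1.09 ± 0.05 at 2 h, adjusted p = 2.29e-18). Knockout clones gave 297, 312 and 305 CPM, then 217, 229 and 226, then 265, 258 and 268, a shallower fall (-0.44 ± 0.05 at 2 h, adjusted p = 2.38e-09). The 2 h responses differed by 0.65 ± 0.07 (adjusted p = 3.5e-08), and at 8 h the genotypes overlapped.

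Acly, which supplies cytosolic acetyl-CoA, rose by 0.74 ± 0.06 at 2 h in rescued and 0.81 ± 0.06 in knockout cells (adjusted p = 5.05e-12 and 7.28e-13). Scd2, a desaturase that makes oleate, did not peak at 2 h but went on rising, from 213, 222 and 198 CPM to 291, 316 and 298 CPM and then 347, 359.5 and 352 CPM in rescued cells (0.74 ± 0.06 at 8 h, adjusted p = 1.31e-12). Its knockout clones gave 199, 172 and 187, then 269, 258 and 245, then 286, 291 and 307 CPM. Acaca, which makes malonyl-CoA, rose from 104, 95.4 and 99.8 to 129, 126 and 113 CPM in rescued cells (0.30 ± 0.06, adjusted p = 3.05e-05). In knockout cells it started lower, at 80.9, 87.6 and 78.2 CPM, and reached 128, 126 and 122 CPM (0.61 ± 0.06, adjusted p = 9.05e-11). Fasn, the fatty acid synthase, rose by 0.25 ± 0.08 and 0.32 ± 0.08 at 2 h (adjusted p = 0.00592 and 0.000575). Scd1 fell by 0.26 at 2 h in rescued cells, a call lost without clone A at 0 h (adjusted p = 0.165) or clone C at 2 h (0.138). Scd1 and Scd2 are close relatives, as Acat2 and Acat3 are, so reads could be split between them.

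**Figure D2:**
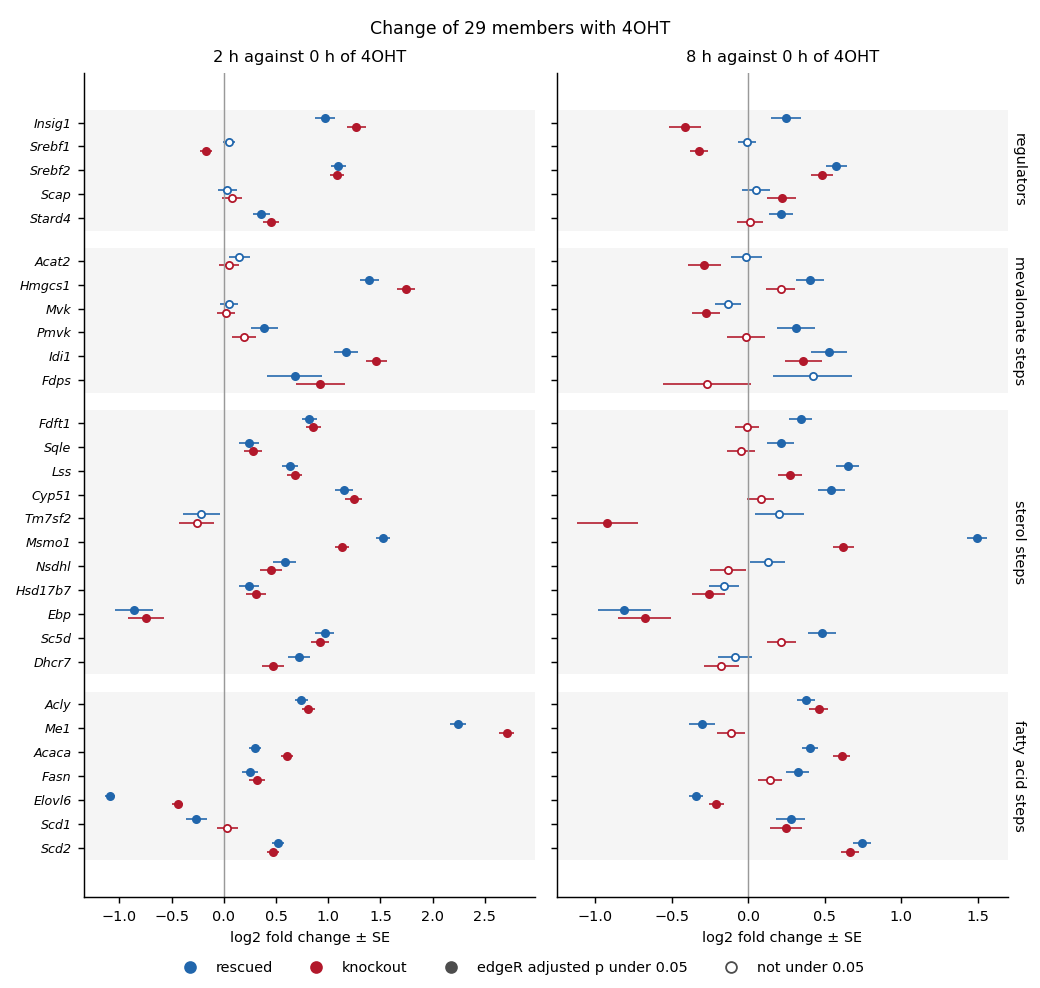
Log2 fold change ± SE of each of the 29 tested members at 2 h and at 8 h against 0 h of 4OHT, rescued cells in blue and knockout cells in red, filled where the edgeR adjusted p was under 0.05. Most points lie right of 0 at 2 h in both genotypes, while at 8 h the knockout point of every sterol step except Ebp lies left of the rescued one.

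In knockout cells, 20 members were higher and 3 lower at 2 h, against 31.5% and 35.2% of all tested genes, with a median of 0.47 (all genes -0.05). All 20 kept their call with each library left out in turn. With total counts alone as the scale the counts were 13 and 4, the all-gene median -0.33, and higher calls 21.2% of all calls rather than 47.2%. The comparisons with 0 h share the 0 h libraries of their genotype, so the 2 h and 8 h changes are not independent.

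At 8 h fewer members were above their starting level in knockout than in rescued cells. In rescued cells 17 members were higher and 3 lower than at 0 h (30.7% and 31.3% of all tested genes), with a median of 0.28 (all genes -0.01). By total counts alone 10 were higher and 3 lower. The calls of Sqle, Pmvk, Stard4, Scd1 and Insig1 were each lost in at least 2 of 6 rounds of leaving a library out (highest adjusted p from 0.0703 to 0.195), and the other 12 held. In knockout cells 9 were higher and 8 lower (28.2% and 29.6%), with a median of -0.01 (all genes -0.02). Of these, 6 of the 9 and 5 of the 8 held with each library left out in turn, the exceptions being Idi1, Scap, Scd1, Mvk, Hsd17b7 and Acat2 (highest adjusted p from 0.064 to 0.35). Without knockout clone A at 8 h the counts were 11 and 6. The role medians of knockout clones A and B lay below those of all rescued clones at 8 h in the 4 roles, while clone C lay within or above the rescued range in all but the regulators. By total counts alone these were 1 and 14, with an all-gene median of -0.38 and higher calls 14.7% rather than 48.8% of all calls, and Lss, Scap, Stard4 and Scd1 then changed sign to -0.09, -0.14, -0.36 and -0.12.

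Of the 21 genes higher at 2 h in rescued cells, 12 fell between 2 and 8 h and 16 were still called higher at 8 h. Of the 20 higher at 2 h in knockout cells, 17 fell and 7 were still called higher. Both sets were chosen by their 2 h libraries, which also enter the change from 2 to 8 h, so the choice favours a fall. The same shares among all genes higher at 2 h were not counted. From 2 to 8 h, 4 members rose and 12 fell in rescued cells (30.7% and 30.2% of all tested genes), and 2 rose and 21 fell in knockout cells (29.4% and 27.7%). In knockout cells the fall of Sqle was not called without clone A at 8 h (-0.14, adjusted p = 0.139), and those of Acat2, Srebf1 and Tm7sf2 were also lost without 1 or more libraries (highest adjusted p 0.181, 0.142 and 0.0551). The genes that fell furthest there were Me1 (-2.82 ± 0.08), Insig1 (-1.68 ± 0.10), Hmgcs1 (-1.53 ± 0.09), Fdps (-1.19 ± 0.26), Cyp51 (-1.16 ± 0.08) and Idi1 (-1.10 ± 0.11).

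**Figure D3:**
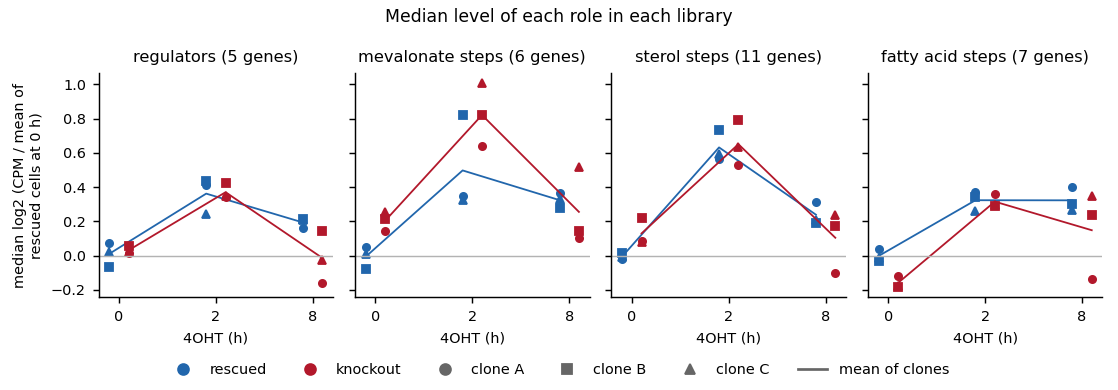
Median over the genes of each role of the log2 ratio of a library's CPM to the mean of rescued cells at 0 h, by hours of 4OHT; symbols are clones, lines join the means of 3 clones, and the hours are spaced evenly rather than to scale. All 4 roles lie higher at 2 h than at 0 h in every clone, and knockout clone A is the lowest library of each role at 8 h.

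Before 4OHT, knockout and rescued cells differed little in these genes. Of the 29, 3 were higher and 3 lower in knockout cells, where 6.81% and 9.64% of all tested genes were, while by total counts alone edgeR called 0 (5 higher and 0 lower at an unadjusted p under 0.05). Acaca was lower in all knockout clones (-0.28 ± 0.06, adjusted p = 0.00125), a call that held with each library left out in turn. Pmvk (0.37), Insig1 (0.33), Msmo1 (0.23), Me1 (-0.27) and Scd2 (-0.18) each lost their call without 3 to 5 of the 6 libraries, with adjusted p up to 0.268, and Scd2 overlapped between the genotypes.

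At 2 h, 7 members were higher and 2 lower in knockout cells, against 10.8% and 12.9% of all tested genes. By total counts alone 3 were higher and 0 lower (4 and 2 at an unadjusted p under 0.05), with higher calls 18.4% rather than 45.7% of all calls. Besides Hmgcs1 and Idi1, these were Insig1 (0.62 ± 0.09, adjusted p = 1.19e-06), Elovl6 (0.54 ± 0.05, adjusted p = 4.72e-10) and Cyp51 (0.34 ± 0.08, adjusted p = 0.00105), and all 5 kept their call with each library left out in turn. Lss (0.20), Me1 (0.20) and Msmo1 (-0.16) lost theirs without 4 or 5 of the 6 libraries (highest adjusted p 0.168, 0.189 and 0.193). Scd2 was lower in all knockout clones (-0.23 ± 0.06, adjusted p = 0.00318). The response to 2 h itself differed for 4 members: it was larger or less negative in knockout cells for Elovl6, Me1 and Acaca (0.31 ± 0.08, adjusted p = 0.00818) and smaller for Msmo1. Of all tested genes, 6.60% differed in each direction, and by total counts alone edgeR called 0 members (1 higher and 2 lower at an unadjusted p under 0.05), with an all-gene median of -0.13.

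At 8 h edgeR called 0 members higher and 10 lower in knockout cells, against 14.5% and 17.1% of all tested genes, with a median of -0.14 (all genes -0.00). At an unadjusted p under 0.05 there were 0 higher and 12 lower, and DESeq2 called 0 higher and 8 lower. The lower genes were 5 sterol steps (Msmo1, Tm7sf2, Fdft1, Lss, Sc5d), 3 regulators (Insig1, Srebf1, Stard4) and the desaturases Scd1 and Scd2, and no mevalonate gene. By total counts alone 18 were lower, with an all-gene median of -0.26 and higher calls 8.17% rather than 45.8% of all calls.

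The firmest were Msmo1 (-0.64 ± 0.06, adjusted p = 1.31e-09), Tm7sf2 (-1.06 ± 0.19, adjusted p = 5.11e-05) and Scd2 (-0.26 ± 0.06, adjusted p = 0.000618), which kept their calls with each library left out in turn. Tm7sf2 is little read, at 9.08, 7.84 and 7.19 CPM in rescued and 4.03, 2.83 and 5.03 CPM in knockout cells at 8 h. These groups did not overlap. The gene overlaps Vps51 on the same strand, and how reads in that overlap were assigned is not stated. The other 7 were each lost without 1 or more libraries. Without knockout clone A the count of lower members was 4, with Fdft1 at -0.10 (adjusted p = 0.342), Stard4 at -0.15 (0.195), Lss at -0.16 (0.149), Scd1 at -0.16 (0.261), Insig1 at -0.28 (0.0571) and Sc5d at -0.26 (0.0725). Without rescued clone A the count was 5 and Srebf1 stood at -0.17 (0.0586), and without rescued clone C it was 6. Rai1 and Ctsb, which overlap Srebf1 and Fdft1 on the opposite strand, were also lower in knockout cells at 8 h (-0.44 ± 0.06 and -0.49 ± 0.07).

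Clone A of the knockout was the lowest of the 8 h libraries in each role, with a sterol median of -0.10 on the log2 ratio scale against 0.17 and 0.24 in clones B and C. Clones B and C are the libraries in which the 13 abundant genes took the largest shares (36.4% and 43.9%, against 18.2% in clone A). Without those libraries and knockout clone A at 2 h, clone A alone is left in knockout cells at 8 h, so that group has no replication. Msmo1 was then at -0.76, Fasn at -0.46 and Srebf2 at -0.26 in knockout against rescued cells. With all libraries, primitive endoderm markers were higher in the knockout at 8 h (5 of 5), as were 5 of 8 stem cell markers, against 14.5% of all tested genes. Nanog differed most of the stem cell markers (1.82 ± 0.10, adjusted p = 1.05e-14). The part of either marker set in the result was not tested.

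**Figure D4:**
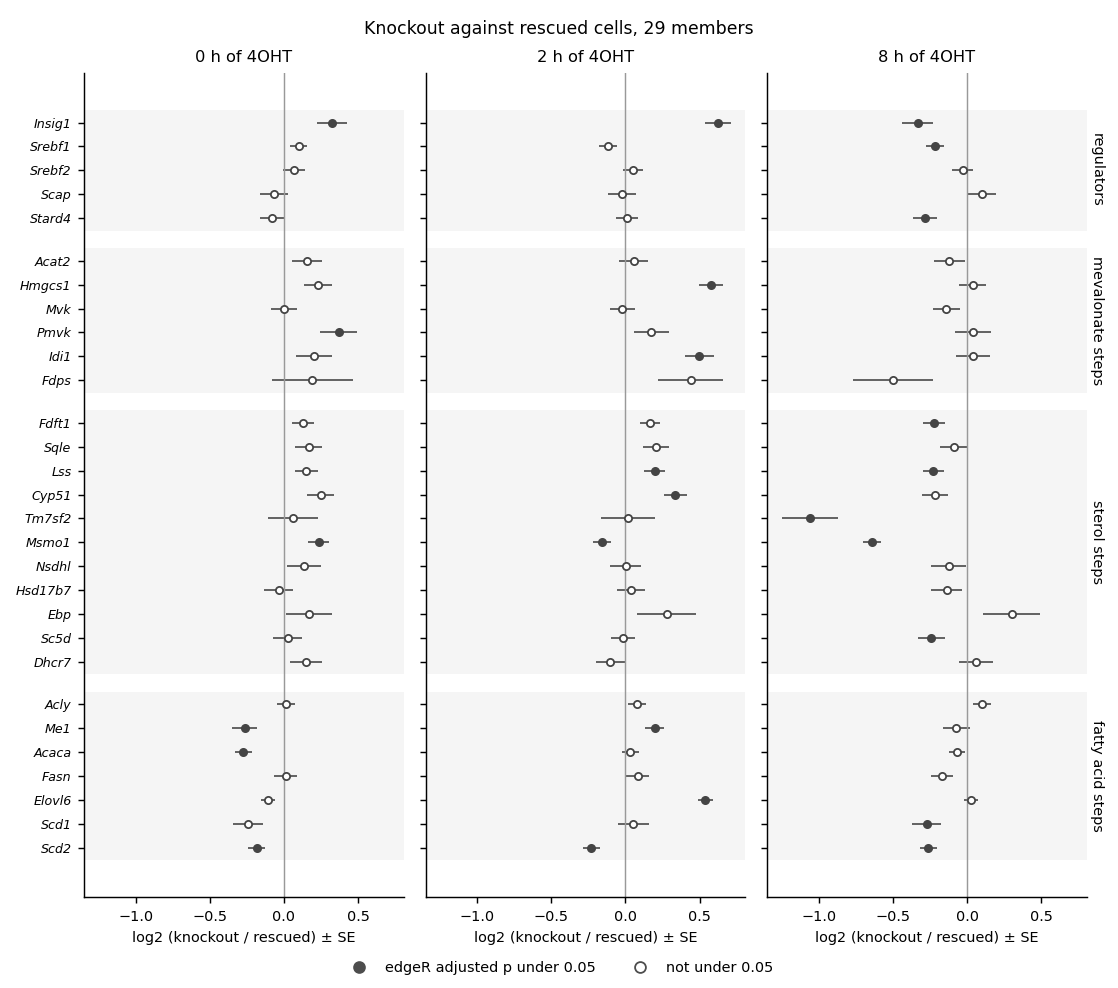
Log2 ratio ± SE of knockout to rescued cells for each of the 29 tested members at 0, 2 and 8 h of 4OHT, filled where the edgeR adjusted p was under 0.05. Called points lie on both sides of 0 at 0 and 2 h and only left of 0 at 8 h.

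The change from 0 to 8 h was smaller or more negative in knockout cells for 7 members and called larger by edgeR for 0 (1 at an unadjusted p under 0.05, and 0 called by DESeq2), where 8.88% of all tested genes had a lower and 7.88% a higher response. Tm7sf2 (-1.12 ± 0.25, adjusted p = 0.0023), Msmo1, Insig1 and Srebf1 (-0.32 ± 0.08, adjusted p = 0.00867) kept their calls with each library left out in turn. Cyp51 (-0.46 ± 0.13, adjusted p = 0.0109) lost its call without knockout clone B at 0 h (-0.36, adjusted p = 0.0634). Lss (-0.38 ± 0.11, adjusted p = 0.0148) lost it without rescued clone B at 0 h (0.059) or knockout clone A at 8 h (0.0533), and Fdft1 (-0.35 ± 0.10, adjusted p = 0.0204) without rescued clone C at 8 h (0.0518), knockout clone B at 0 h (0.0801) or knockout clone A at 8 h (0.11). By total counts alone 9 members had a lower response. Without the 3 libraries with a high share of abundant genes, clone A alone is left in knockout cells at 8 h. The difference was then -0.45 for Hmgcs1, -0.58 for Sqle and -0.47 for Fasn. Ctsb, which overlaps Fdft1, also responded less in knockout cells at 8 h (-0.54 ± 0.10, adjusted p = 0.000223).

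Lists of related genes outside the 30 were counted in the same fits. Of 24 other SREBP targets and genes of sterol handling, 11 were higher and 10 lower at 2 h in rescued cells (32.4% and 33.8% of all tested genes), with a median of 0.06 (all genes -0.02). At 8 h the knockout had 2 higher and 6 lower than rescued cells (14.5% and 17.1% of all tested genes), with a median of -0.13. Acsl3, which activates fatty acids, rose by 0.88 ± 0.06 at 2 h (adjusted p = 1.68e-13), and Aacs, which activates acetoacetate for lipid synthesis, was 0.88 ± 0.08 above its starting level at 8 h (adjusted p = 6.82e-11) and lower in knockout cells then (-0.46 ± 0.08, adjusted p = 3.28e-05).

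Of 14 tested genes of fatty acid oxidation, the pathway that breaks down what the members make, 3 were higher and 7 lower at 2 h in rescued cells (32.4% and 33.8% of all tested genes), with a median of -0.22 (all genes -0.02). At 8 h 1 was higher and 10 lower (30.7% and 31.3%), with a median of -0.34 (all genes -0.01). Slc25a20, the mitochondrial carnitine carrier, fell by 1.57 at 2 h and 1.67 at 8 h on the log2 scale (adjusted p = 3.18e-14 and 4.63e-15). In knockout cells 1 of the 14 was higher and 8 lower at 8 h (28.2% and 29.6% of all tested genes), with a median of -0.33 (all genes -0.02).

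Of 6 genes encoding proteins that bind beside SREBP, 3 were higher and 1 lower at 2 h in rescued cells (32.4% and 33.8% of all tested genes). Nfyb, a subunit of NF-Y, rose by 0.74 ± 0.05 in rescued cells (adjusted p = 2.42e-13) and by 0.16 ± 0.05 in knockout cells (adjusted p = 0.0126), and the responses differed by -0.58 ± 0.08. Of 6 genes of the LXR arm, which acts when sterols are plentiful, 3 were higher and 1 lower at 2 h in rescued cells, against 32.4% and 33.8% of all tested genes, and 1 higher and 3 lower in knockout cells (31.5% and 35.2% of all tested genes). The lower one in rescued cells was Abcg1, a sterol exporter (-3.15 ± 0.19, adjusted p = 1.46e-15). Abca1, of the same list, went the other way, from a mean of 137 to 193 CPM at 2 h in rescued cells. In knockout cells its mean went from 92.4 to 94.2 CPM.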

How the data were processed

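Nascent RNA was measured in 18 libraries, with 3 clones in each of 6 groups. The deposited table held raw whole-number counts per gene symbol, not normalized, which the authors made from their reads. Per the submitters' processing notes, mm10, featureCounts, STAR and DESeq were used. Their versions, and whether counting used strand or introns, are not stated there. The 30 members and the other gene lists were chosen with earlier results of these data known.

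Counts were analysed with edgeR 4.0.16 (limma 3.58.1, R 4.3.3): filterByExpr, TMM scaling, a single quasi-likelihood fit of 6 group means over all libraries, 11 comparisons, and Benjamini-Hochberg adjustment at 0.05 over 14128 genes. DESeq2 1.42.0, other scalings, no filter, only the groups compared, a clone block and leaving out libraries were alternatives. SE is the log2 fold change over the square root of F. Values in every clone are given for Insig1, Srebf1 and Srebf2 and for up to 6 members per comparison with the largest called change. Scap is given by its range and Stard4 by its changes. Between libraries 3 counts, what a count of 0 allows, equal 0.196 to 0.628 CPM. Reads carry no molecular identifiers, so this floor covers counting error only. The 13 abundant genes have a mean CPM over 1000, a within-group correlation with Cdk8 over 0.9 and a log2 SD over 0.3. Clone letters recur in every group, but whether a letter is the same line throughout is not stated, so libraries were not treated as paired. Gene positions are from GENCODE on GRCm38.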

Additional observations from a re-analysis of the deposited data

Results flagged for a closer look

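For 11 differences the response to 4OHT itself differed between knockout and rescued cells by edgeR's test of the interaction. At 2 h the response was higher in knockout cells for Elovl6 (0.65), Me1 (0.46) and Acaca (0.31), and lower for Msmo1 (-0.39). Of all tested genes, 6.60% differed in each direction, and by total counts alone edgeR called 0 members. Elovl6 fell in both genotypes, so its value is a shallower fall, while Me1 and Acaca rose in both and rose more in the knockout.

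At 8 h the response was lower in knockout cells for Tm7sf2 (-1.12), Msmo1 (-0.87), Insig1 (-0.66), Cyp51 (-0.46), Lss (-0.38), Fdft1 (-0.35) and Srebf1 (-0.32). Of these, 5 are sterol steps, as are 11 of the 29 tested members, and the rest are regulators. Of all tested genes, 8.88% had a lower and 7.88% a higher response at 8 h. The calls of Cyp51, Lss and Fdft1 were each lost in at least 1 round of leaving a library out. Insig1 is the gene whose called change from 0 to 8 h had opposite signs in the genotypes. The differences of response are on the log2 scale and were measured in 3 clones per group.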

How the results depend on the processing

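Each of 319 member results was recomputed under the alternatives, giving 4379 values. Of these, 4092 kept their call and its direction or stayed uncalled, 187 lost a call and 95 gained one. Direction was not compared where neither fit made a call. The other 5 changed sign, with a call in either fit. All 5 came with library size alone in knockout cells: Sqle at 2 h (-0.0052), and Lss (-0.094), Scap (-0.14), Stard4 (-0.36) and Scd1 (-0.12) at 8 h. That scaling shifts all genes, and the counts of members called then became 10 higher for rescued 8 h against 0 h, 13 higher for knockout 2 h, 1 higher and 14 lower for knockout 8 h, and 0 higher for knockout 8 h against 2 h. For knockout against rescued cells it gave 0 higher and 0 lower at 0 h, 3 higher and 0 lower at 2 h and 18 lower at 8 h, and for the difference of 2 h responses 0 higher and 0 lower. DESeq2 gave 5 lower for knockout 8 h and 1 lower for knockout against rescued at 2 h, and DESeq2 size factors in edgeR also gave 1 lower there. Without a filter on low counts, 5 were higher at 0 h and 5 in the 2 h response difference. Fitting only the groups compared gave 5 higher at 0 h and 5 lower at 8 h. Without the 3 libraries with a high share of abundant genes, 1 was lower at 2 h, and the 2 h response difference had 5 higher and 2 lower. That fit leaves knockout clone A alone at 8 h, so its calls there are not counted. The cause of these shifts was not tested.

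Leaving out each library in turn, the members higher ranged from 2 to 4 for knockout 8 h against 2 h, 0 to 4 for knockout against rescued at 0 h, 0 to 1 at 8 h and 0 to 1 for the 8 h response difference. Members lower ranged from 1 to 3 at 0 h, 1 to 2 at 2 h and 4 to 12 at 8 h. Deviations of the 45 same-letter pairs of libraries had a mean correlation of 0.0164 (-0.101 to 0.0826), and 15 of 18 libraries were on average closest to their own letter, a hint from the data and not from the design. With the letter as a replicate block, 5 were higher at 0 h in the knockout, Hmgcs1 (adjusted p = 0.0321) and Cyp51 (0.0349) being added. The block also brought calls for Hmgcs1 (adjusted p = 0.0105) and Sc5d (0.0498) in knockout cells at 8 h, for Fdft1 (0.04) at 2 h and Cyp51 (0.0291) at 8 h between genotypes, for Hmgcs1 (0.0138) in the 2 h response difference, and lost that of Scap in knockout cells at 8 h (0.0559). Beside these it changed no other call of a member. Depth limits Fdps, Tm7sf2 and Ebp, which were read at under 10 CPM.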
